A study of Homo sapiens with 9 samples.

Results

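The AP-1 genes FOS, FOSB, FOSL1, FOSL2, JUN, JUNB and JUND, together with EGR1, ATF3 and MYC, were examined in MDA-MB-231 cells with and without a copper chelator. The 10 genes were chosen by name, as transcription factor genes of the immediate early class or relatives of these. They came out of 59453 gene names in the count table, and all 10 were among the 16556 genes with enough counts to be tested. MDA-MB-231 is an established human triple-negative breast cancer (TNBC) line, and all libraries came from this 1 line. RNA-Seq was performed on 3 groups of 3 libraries, untreated cells, cells treated with the copper chelator TEPA for 8 h and cells treated with it for 24 h. The labels give a TEPA concentration of 8 mM for this line and the sequencing methods give 4 mM. A single untreated group was compared with both times, and neither a vehicle nor a time in culture is named for it.

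Immediate early genes are transcribed within minutes of a stimulus such as serum or stress, without new protein synthesis, and most of their mRNAs are short-lived. FOS proteins (FOS, FOSB, FOSL1, FOSL2) pair with JUN proteins (JUN, JUNB, JUND) through leucine zippers to form AP-1, which binds DNA, whereas JUN proteins can also pair with one another. Transcription of FOS and EGR1 is driven by SRF and ternary complex factors downstream of ERK, and FOSL1 is a well-known ERK-dependent AP-1 gene in invasive breast cancer cells. ATF3 is a stress-induced member of the ATF/CREB family, and MYC with its partner MAX activates genes of growth and ribosome production.

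Library totals lay between 34633755 and 49342659 counts, and the 10 genes together took between 0.103% and 0.116% of them. The mitochondrially encoded share was 1.79% to 2.91% in untreated libraries, 3.61% to 4.02% at 8 h and 1.89% to 2.02% at 24 h. The part of this share in the results at 8 h was not tested. Of 8 markers of blood, endothelial and liver cells, 3 were at 0 in every library and only PECAM1 was tested. The summed level of the 8 ranged from 3.05 to 4.24 CPM, the count scaled to the size of its library, in untreated cells, 1.0 to 1.28 CPM at 8 h and 7.38 to 9.06 CPM at 24 h, nearly all of it PECAM1, and its part in the results was not tested. VIM, CD44, EGFR, KRT8 and KRT18, which MDA-MB-231 cells express, were all detected, PGR was at 0 and ESR1 was under the expression filter, although ERBB2 was at 69.2 CPM on average. In RNA from a whole culture, a lower level in every cell and fewer expressing cells cannot be told apart. Nothing says that the replicates came from separate cultures, so p-values measure only the spread between these libraries, which may be technical.

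The 250 bases before the start sites are shown for 6 of the genes, 4 that were higher at 24 h (FOS, FOSB, JUNB and EGR1) and 2 that were lower at 8 h and not at 24 h (JUND and ATF3). The sequences are from RefSeq on GRCh38.p14, and 8 of the 10 genes matched its promoter table. Each sequence is written 5′ to 3′ on the strand of its gene. Capitals mark 3 kinds of motif: CArG boxes, which bind SRF, CRE cores (TGACG, on either strand, thus also CGTCA), which bind ATF/CREB proteins and are contained in the full CRE (TGACGTCA), and the related site TGACATCA, known as the AP-1-like element of JUN.
FOS, chr14:75278578-75278827, plus strand: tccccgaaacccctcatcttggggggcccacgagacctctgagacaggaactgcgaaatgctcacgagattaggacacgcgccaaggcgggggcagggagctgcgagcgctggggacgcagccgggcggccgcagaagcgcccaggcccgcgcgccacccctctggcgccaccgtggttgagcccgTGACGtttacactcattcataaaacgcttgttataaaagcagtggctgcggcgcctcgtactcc
FOSB, chr19:45467746-45467995, plus strand: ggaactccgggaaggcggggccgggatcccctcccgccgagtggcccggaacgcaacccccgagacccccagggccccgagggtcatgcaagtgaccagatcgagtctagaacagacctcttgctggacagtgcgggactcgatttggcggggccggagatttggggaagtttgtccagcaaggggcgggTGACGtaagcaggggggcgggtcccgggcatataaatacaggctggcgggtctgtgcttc
JUNB, chr19:12791236-12791485, plus strand: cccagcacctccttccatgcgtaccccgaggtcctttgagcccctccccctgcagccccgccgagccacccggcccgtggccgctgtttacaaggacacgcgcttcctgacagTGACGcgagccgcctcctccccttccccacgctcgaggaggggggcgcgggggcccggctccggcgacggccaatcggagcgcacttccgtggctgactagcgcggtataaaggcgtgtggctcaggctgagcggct
EGR1, chr5:138465229-138465478, plus strand: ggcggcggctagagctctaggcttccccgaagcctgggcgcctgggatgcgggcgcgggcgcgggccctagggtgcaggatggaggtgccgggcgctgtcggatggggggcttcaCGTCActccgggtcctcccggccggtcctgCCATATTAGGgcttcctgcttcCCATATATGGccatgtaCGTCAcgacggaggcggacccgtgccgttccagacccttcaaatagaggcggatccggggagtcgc
JUND, chr19:18281623-18281872, minus strand: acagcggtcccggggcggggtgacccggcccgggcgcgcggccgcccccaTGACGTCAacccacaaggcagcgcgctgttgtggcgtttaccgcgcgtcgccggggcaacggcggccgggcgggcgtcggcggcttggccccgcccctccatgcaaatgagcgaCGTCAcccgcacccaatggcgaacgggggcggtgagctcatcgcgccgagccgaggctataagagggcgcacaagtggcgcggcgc
ATF3, chr1:212565157-212565406, plus strand: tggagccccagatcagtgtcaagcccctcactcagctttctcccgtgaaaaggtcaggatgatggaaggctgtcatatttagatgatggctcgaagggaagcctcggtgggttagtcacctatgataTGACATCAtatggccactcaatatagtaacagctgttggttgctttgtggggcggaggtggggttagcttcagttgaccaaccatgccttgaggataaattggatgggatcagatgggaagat

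A TGACG core lay in the window of 7 of the 8 matched genes, namely FOS, FOSB, FOSL2, JUN, JUNB, JUND and EGR1, and in 21.2% of all 35116 promoter windows of this length. EGR1 alone among them held CArG boxes, at 105 to 96 and 83 to 74 bases before its start, and 1.16% of all windows held one. JUND held a full CRE at 200 to 193 bases before its start (1.65% of windows), and JUN and ATF3 each held TGACATCA (2.37% of windows). No window of the 8 genes held TGANTCA, the AP-1 consensus, which 6.57% of all windows held on either strand. ATF3 has another RefSeq start in the promoter table, with a window at chr1:212614768-212615017 that held none of the marked motifs. The bases between the 2 ATF3 windows were not searched, so a start or motif there was not covered. These matches describe letters in short windows, and binding was not measured. Bases farther upstream were not searched, so a gene without a motif here, such as FOS for CArG boxes, may hold it there.

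Against untreated cells, TEPA for 8 h left FOSL1 and JUN higher and JUND and ATF3 lower, whereas TEPA for 24 h left FOS, FOSB, JUNB and EGR1 higher and FOSL1, FOSL2 and MYC lower. A gene was called at a Benjamini-Hochberg adjusted p under 0.05 in the quasi-likelihood model of edgeR. At 8 h this made 2 of 10 higher, against 25.2% of all genes tested, and 2 of 10 lower, against 24.5%, or 49.6% called in either direction. At 24 h the 4 higher stood against 25.7% of all genes, the 3 lower against 26.8%, and both together against 52.5%. Comparing 24 h directly with 8 h, all 10 genes were called, with 6 higher against 26.0% of all genes and 4 lower against 28.8% (54.8% in either direction).

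A log2 fold change beyond 0.5 was then required as well. At 8 h no gene stayed called as higher (10.1% of all genes) and JUND and ATF3 stayed called as lower (7.67%, with 17.8% in either direction). At 24 h FOS, FOSB, JUNB and EGR1 stayed called as higher (10.2%) and no gene as lower (8.46%, with 18.7% in either direction). Between the times 6 genes stayed higher (10.4%) and FOSL1 alone lower (10.8%, with 21.2% in either direction).

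The groups of libraries did not overlap for 4 of the 10 genes at 8 h, 2 above untreated (29.2% of all genes) and 2 below (28.6%, with 57.8% in either direction). At 24 h they did not overlap for 7, of which 4 were above (28.4%) and 3 below (28.9%, with 57.2% in either direction). Between the times they did not overlap for 6 above (29.6%) and 3 below (32.4%, with 62.0% in either direction), MYC being the exception. The median log2 fold change of the 10 genes was -0.13 at 8 h and 0.10 at 24 h, where that of all genes tested was 0.00 each time. Without untreated replicate 1 these medians were -0.07 and 0.21, and without untreated replicate 2 they were -0.30 and 0.06. The same 3 untreated libraries serve for both times.

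**Figure D1:**
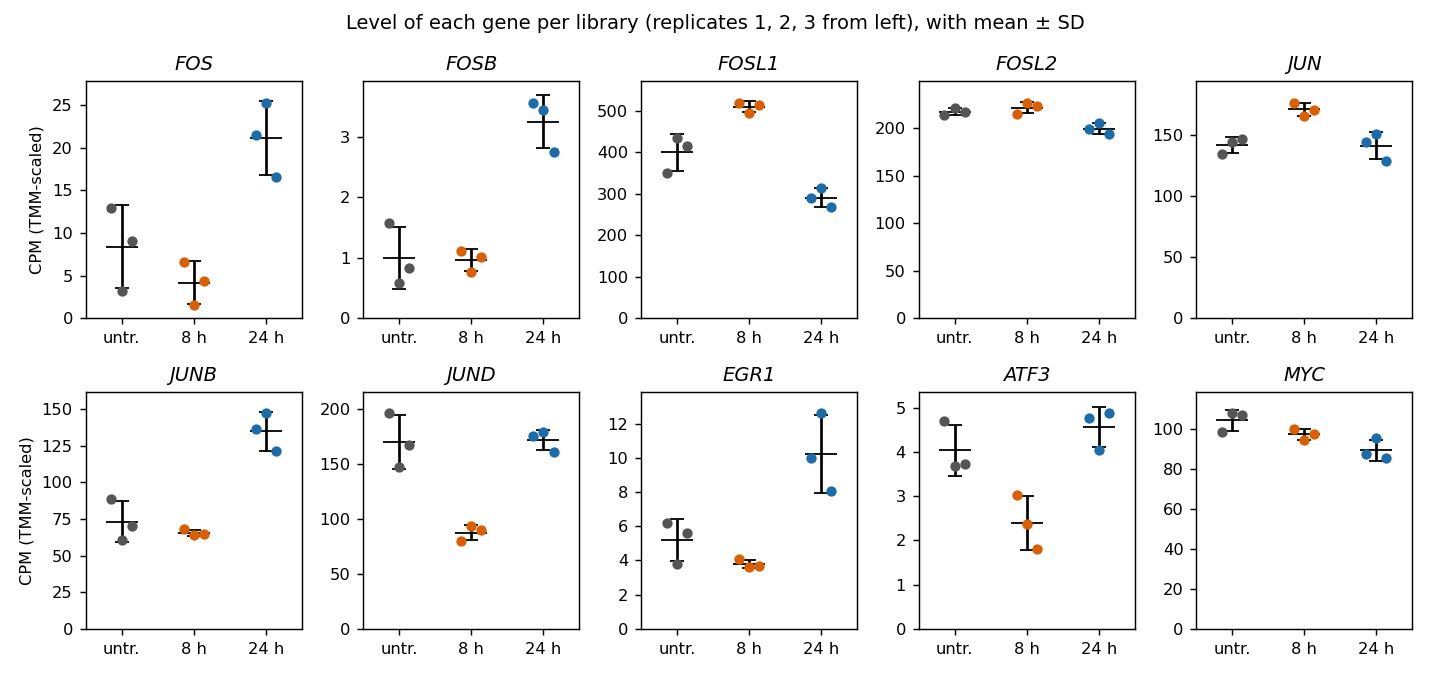
Level of each of the 10 genes in CPM (y axis, from 0) in the 3 libraries of each group (x axis), with replicates 1, 2 and 3 from left to right and the mean ± SD in black. FOS, FOSB, JUNB and EGR1 are above every untreated library in all 3 libraries at 24 h, and JUND and ATF3 are below every untreated library at 8 h.

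**Figure D2:**
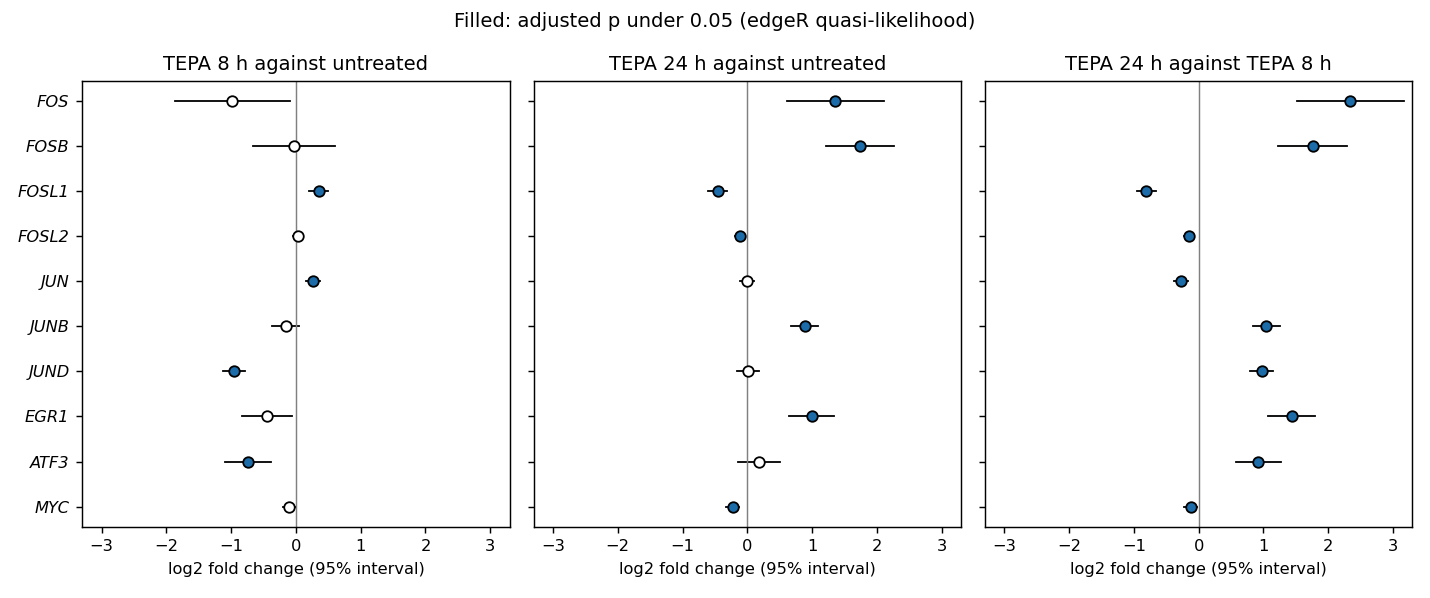
Log2 fold change (x axis) of each gene (y axis) in the 3 comparisons, with 95% intervals, and filled points where the adjusted p was under 0.05. FOS has the widest interval at 8 h, from -1.87 to -0.10, and 10 of 10 points are filled in the comparison of 24 h with 8 h.

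Of the FOS family, FOS (chromosome 14, 75278826 to 75282230 on hg38) encodes the short-lived founding partner of JUN. It was at 12.9, 3.24 and 9.05 CPM in untreated replicates 1, 2 and 3, at 6.57, 1.52 and 4.35 CPM at 8 h, and at 21.5, 25.3 and 16.6 CPM at 24 h. Every library at 24 h was above every untreated library, whereas the 8 h and untreated libraries overlapped. Its log2 fold change was 1.36 at 24 h (standard error 0.35, adjusted p = 0.0041 by edgeR) and -0.98 at 8 h (95% interval -1.87 to -0.10, adjusted p = 0.062). DESeq2 did not call the difference at 24 h (1.34, adjusted p = 0.075). Untreated replicate 2 was 3.97-fold below replicate 1, and without it FOS was lower at 8 h (-1.40, adjusted p = 0.0014), as it was without TEPA 8 h replicate 1 (-1.50, adjusted p = 0.02). Of the 9 fits with 1 library left out, only these 2 called FOS at 8 h. Its values over the 9 ran from -1.50 to -0.53, with adjusted p-values up to 0.29. From 8 h to 24 h FOS rose by 2.34 on the log2 scale, or 5.07-fold (adjusted p = 9.3e-05).

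FOSB (chromosome 19, 45467995 to 45475179) encodes a close relative of FOS that is induced with it. Its counts were low, with 59, 27 and 33 in the untreated replicates, 45, 29 and 37 in those at 8 h and 182, 149 and 99 in those at 24 h. In CPM this was 1.57, 0.591 and 0.837, then 1.12, 0.758 and 1.01, then 3.57, 3.45 and 2.75, so that the 24 h libraries stood above the other two groups. FOSB was 3.33-fold higher at 24 h (log2 fold change 1.74, standard error 0.25, adjusted p = 2.6e-05). The 8 h difference did not pass (-0.02, 95% interval -0.66 to 0.61, adjusted p = 0.95). The gene ERCC1 overlaps FOSB on the opposite strand, and strand was used in counting.

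FOSL1 (chromosome 11, 65892049 to 65900573), which encodes FRA-1, went the other way. Its level was 350, 434 and 416 CPM in untreated libraries, 520, 495 and 515 CPM at 8 h, and 290, 314 and 268 CPM at 24 h. The groups did not overlap, with 8 h on top and 24 h at the bottom. It was higher at 8 h (log2 fold change 0.35, standard error 0.07, adjusted p = 4.6e-04) and lower at 24 h (-0.46, standard error 0.07, adjusted p = 3.3e-05), and it fell by 0.81 on the log2 scale between the times. Of all genes tested, 3.45% were called higher at 8 h, lower at 24 h and lower from 8 h to 24 h, as FOSL1 was.

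FOSL2 (chromosome 2, 28392448 to 28417317), which encodes FRA-2, varied least of the family. Untreated replicates 1, 2 and 3 held 214, 221 and 217 CPM of it, those at 8 h 215, 227 and 223 CPM, and those at 24 h 199, 206 and 194 CPM. The 24 h libraries were just below all untreated ones. A difference was called at 24 h (log2 fold change -0.12, adjusted p = 0.012) and not at 8 h (0.03, 95% interval -0.05 to 0.11, adjusted p = 0.53). Genes for FOSL2-AS1 on the opposite strand and a lncRNA on the same strand overlap it.

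Levels of different genes were compared only as CPM per kilobase of merged exon. On this scale FOSL1 was the most abundant of the 10 genes in all 3 groups, at 212 ± 23.6 in untreated cells, followed by JUND at 88.2 ± 12.9, JUNB at 40.0 ± 7.75, JUN at 39.3 ± 1.66, FOSL2 at 30.3 ± 0.519 and MYC at 17.1 ± 0.874 (SD, n = 3). FOS was at 2.63 ± 1.52, EGR1 at 1.65 ± 0.392, ATF3 at 1.01 ± 0.143 and FOSB at 0.18 ± 0.092. The libraries of JUNB and JUN overlapped, as did those of FOS and EGR1, so neither pair had an order in untreated cells. Per kilobase of the longest transcript instead, ATF3 was at 1.92, above EGR1 at 1.65, and JUN at 43.7, above JUNB at 40.0, with MYC at 28.1 and FOS at 3.99. At 8 h, JUN and JUND overlapped, at 47.3 ± 1.55 and 45.4 ± 3.59, as did FOS and EGR1. At 24 h no neighbours overlapped, and JUNB at 73.6 ± 7.08 was 1.88-fold above JUN.

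FOSL1 made up 86.4% ± 1.7 of the summed FOS family level per kilobase in untreated cells, 89.3% ± 0.25 at 8 h and 81.4% ± 0.23 at 24 h (SD, n = 3). FOS took 1.12% ± 0.73, 0.426% ± 0.25 and 3.47% ± 0.47. FOS was thus a small part of its family in every group, also where it was called higher. Of the JUN family, JUND took 52.5% ± 1.6 in untreated cells, 35.3% ± 2.5 at 8 h and 44.2% ± 0.90 at 24 h. The share of JUN was 23.7% ± 3.5, 36.8% ± 1.5 and 19.4% ± 0.13, and that of JUNB was 23.7% ± 1.9, 27.8% ± 1.1 and 36.5% ± 0.84. The shares of JUND did not overlap between any of the groups. These shares are a description on merged exon length alone and were not tested.

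**Figure D3:**
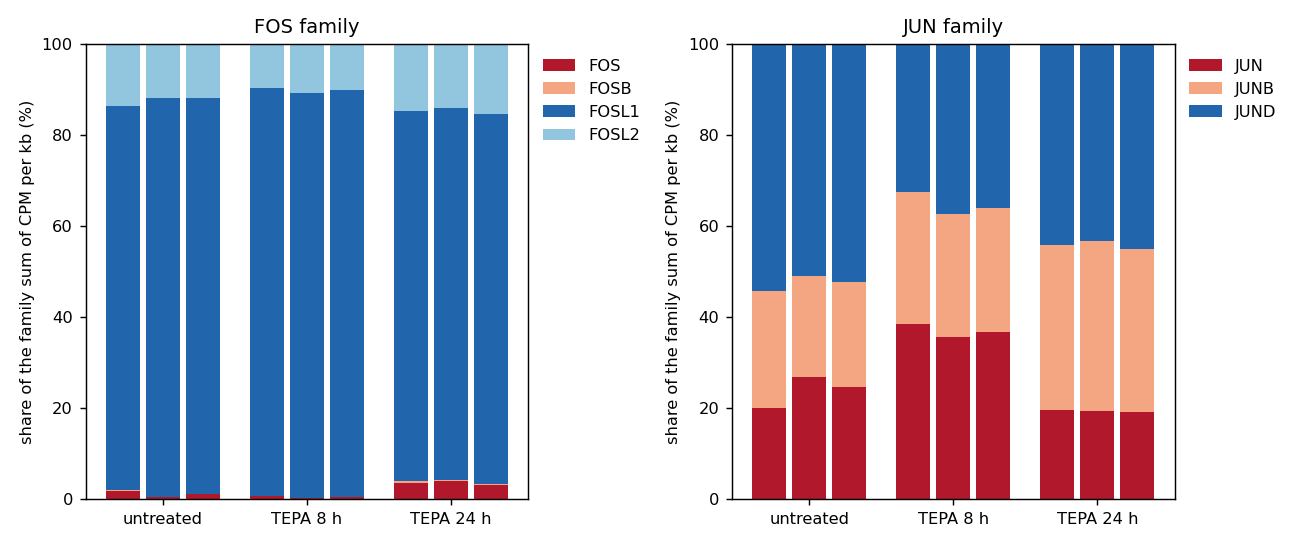
Share of each gene (y axis, percent) in the summed CPM per kilobase of the FOS family (left) and JUN family (right), with 1 bar per library in replicate order within each group. FOSL1 fills between 81.3% and 89.5% of every FOS family bar, and JUND fills 51.0% to 54.3% of the JUN family bars in untreated libraries and 32.5% to 37.4% at 8 h.

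Of the JUN family, JUN (chromosome 1, 58776845 to 58784048) encodes the AP-1 subunit that JNK phosphorylates. It was at 135, 145 and 147 CPM in untreated libraries, 177, 166 and 171 CPM at 8 h, and 145, 151 and 129 CPM at 24 h. The 8 h libraries stood above all others, and the untreated and 24 h libraries overlapped. JUN was 1.20-fold higher at 8 h (log2 fold change 0.27, standard error 0.05, adjusted p = 4.9e-04), and no difference was called at 24 h (-0.01, 95% interval -0.12 to 0.11, adjusted p = 0.94).

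JUNB (chromosome 19, 12791486 to 12793315) encodes a JUN protein that can counter JUN at some promoters. Its level was 88.6, 60.8 and 70.1 CPM in untreated libraries, 67.8, 64.0 and 64.6 CPM at 8 h, and 136, 147 and 121 CPM at 24 h. All 24 h libraries were above all others, and JUNB was 1.85-fold higher at 24 h than in untreated cells (log2 fold change 0.88, standard error 0.10, adjusted p = 1.7e-06). The 8 h difference did not pass (-0.16, adjusted p = 0.21), but without untreated replicate 2 JUNB was lower (-0.28, adjusted p = 0.0098). This was the only 1 of 9 fits with 1 library left out that called it, and the values ran from -0.28 to 0.000407. The gene HOOK2 overlaps JUNB on the opposite strand.

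JUND (chromosome 19, 18279694 to 18281622) encodes the JUN protein that is usually expressed in resting cells. It was at 196, 147 and 167 CPM in untreated libraries, 79.8, 93.1 and 89.8 CPM at 8 h, and 175, 179 and 161 CPM at 24 h. The 8 h libraries were far below the rest, by 1.94-fold against untreated cells (log2 fold change -0.96, standard error 0.08, adjusted p = 2.1e-07). After 24 h the difference from untreated cells did not pass (0.01, 95% interval -0.16 to 0.19, adjusted p = 0.90), and from 8 h it rose by 0.97 on the log2 scale (adjusted p = 1.0e-07).

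EGR1 (chromosome 5, 138465479 to 138469303) encodes a zinc finger factor induced by growth factors, and NAB1 and NAB2 encode its co-repressors. Its level was 6.16, 3.81 and 5.60 CPM in untreated libraries, 4.07, 3.63 and 3.65 CPM at 8 h, and 10.0, 12.6 and 8.04 CPM at 24 h. Libraries at 24 h were above all others, with a log2 fold change of 0.99 (standard error 0.16, adjusted p = 9.1e-05), and those at 8 h overlapped the untreated ones. At 8 h the log2 fold change was -0.44 (95% interval -0.83 to -0.06, adjusted p = 0.055), and EGR1 was called lower in 6 of 17 alternatives, among them DESeq2 (-0.46, adjusted p = 0.022) and the fit without untreated replicate 2 (-0.64, adjusted p = 0.0035). With 1 library left out, the 8 h value of EGR1 ran from -0.64 to -0.30, with adjusted p-values up to 0.2. NAB2 was higher after both treatments (0.21 and 0.13, adjusted p = 0.0042 and 0.049), although the 24 h call was lost in 8 of 17 alternatives, DESeq2 among them, and no difference was called for NAB1 (-0.06 and 0.13, adjusted p = 0.48 and 0.11).

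ATF3 (chromosome 1, 212565334 to 212620777) encodes a stress-induced repressor that pairs with JUN proteins. It was at 4.69, 3.68 and 3.73 CPM in untreated libraries, 3.02, 2.38 and 1.80 CPM at 8 h, and 4.77, 4.05 and 4.87 CPM at 24 h. Every 8 h library was below all others, and ATF3 was 1.67-fold lower at 8 h (log2 fold change -0.74, standard error 0.17, adjusted p = 0.0016). After 24 h the difference from untreated cells did not pass (0.18, 95% interval -0.14 to 0.50, adjusted p = 0.33), and from 8 h to 24 h ATF3 rose by 0.92 on the log2 scale (adjusted p = 1.8e-04). JUND and ATF3 thus shared the pattern of lower at 8 h, not called at 24 h and higher from 8 h to 24 h, with 6.67% of all genes tested.

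MYC, on chromosome 8, changed little. Its level was 98.4, 108 and 107 CPM in untreated libraries, 100, 94.5 and 97.7 CPM at 8 h, and 87.8, 95.4 and 85.4 CPM at 24 h. The 24 h libraries were all below the untreated ones, with a log2 fold change of -0.22 (standard error 0.05, adjusted p = 0.0011). No difference was called at 8 h (-0.10, 95% interval -0.21 to 0.00, adjusted p = 0.098), although MYC was called lower there without untreated replicate 1 (-0.14, adjusted p = 0.017). Of the 9 fits with 1 library left out, only this 1 called MYC at 8 h, and adjusted p-values ran up to 0.25. The call between 8 h and 24 h (-0.12, adjusted p = 0.044) was lost in 13 of 17 alternatives, with adjusted p-values up to 0.17.

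Replicates spread unevenly among the 10 genes. Within untreated cells, the coefficient of variation was 57.8% for FOS, 51.1% for FOSB and 23.7% for EGR1, against 1.71% for FOSL2 and 4.21% for JUN. Untreated replicate 1 was the highest of its group, and replicate 2 the lowest, for each of FOS, FOSB, JUNB, JUND, EGR1 and ATF3. For the other 4 genes, FOSL1, FOSL2, JUN and MYC, replicate 1 was the lowest. The mitochondrially encoded share moved with this order, at 1.79% in replicate 1, 2.13% in replicate 3 and 2.91% in replicate 2, and its part in the spread was not tested. Over all genes tested, untreated replicates 1 and 2 differed most of all pairs within a group, with a mean chi-square per gene of 20.5. The other pairs lay between 2.35 and 8.26. At 24 h, replicate 3 was the lowest library for 9 of the 10 genes, ATF3 being the exception. Without untreated replicate 2, 5 of the 10 genes were lower at 8 h instead of 2, where 4077 of 16906 genes tested were lower in that fit and 4051 of 16556 with all libraries.

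**Figure D4:**
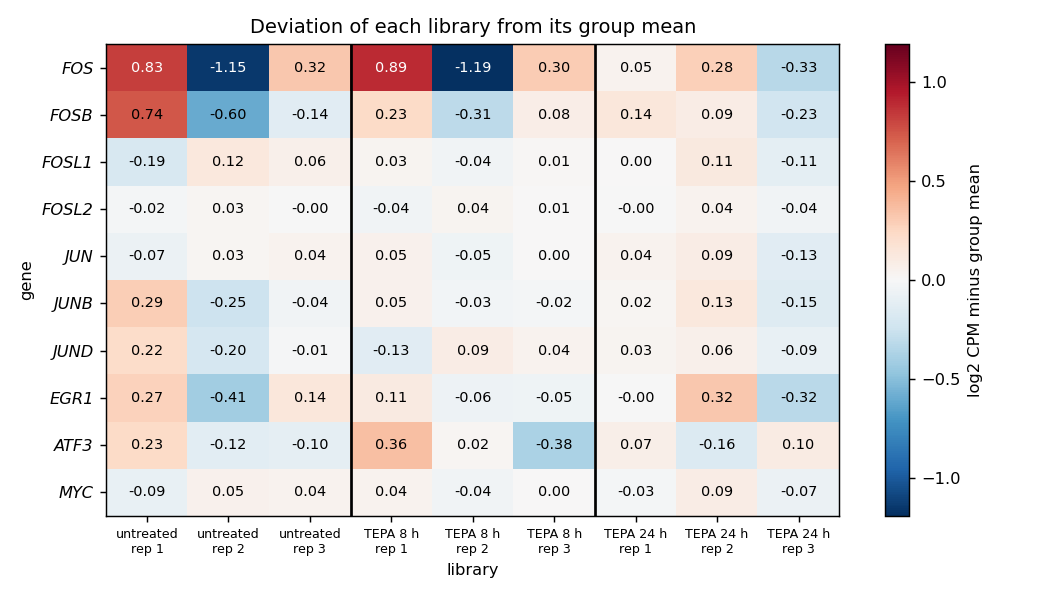
Deviation of each library (x axis) from the mean of its group in log2 CPM (colour and printed value) for each gene (y axis). FOS ranges from -1.15 to 0.83 among untreated libraries, and FOSL2 stays within -0.04 and 0.04 in all 9.

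Other immediate early genes, of which 19 of 22 were tested, did not move as 1 group. At 8 h, 4 were higher and 8 lower, against 25.2% and 24.5% of all genes tested. At 24 h 3 were higher and 5 lower, against 25.7% and 26.8%. The median log2 fold change was -0.04 each time. NR4A2, an orphan nuclear receptor gene, was lower at 8 h (-0.91, adjusted p = 0.0016), with IER3 (-0.68, adjusted p = 6.0e-06) and DUSP1 (-0.68, adjusted p = 1.4e-05), which encodes a MAP kinase phosphatase. GEM, a small GTPase gene, and PLK3, a stress kinase gene, were lower at 24 h (-0.85 and -0.81, adjusted p = 5.5e-08 and 2.0e-07). There ZFP36, whose protein destabilizes mRNAs, was higher (0.45, adjusted p = 9.4e-04). At 8 h GEM was also lower (-0.64, adjusted p = 1.5e-06), ZFP36 higher (0.26, adjusted p = 0.035) and PLK3 not called (adjusted p = 0.97). DUSP1 was lower at 24 h as well (-0.30, adjusted p = 0.0089), and NR4A2 and IER3 were not called there (adjusted p = 0.81 and 0.064). EGR2, EGR3 and EGR4, the relatives of EGR1, were under the expression filter.

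Of SRF and the genes that work with it or with EGR1, all 8 listed were tested. At 8 h 5 were higher and 1 lower, against 25.2% and 24.5% of all genes tested, with a median of 0.15. None was lower there without untreated replicate 2 or 3 or any 1 of the TEPA 8 h replicates. SRF itself was higher at 8 h (log2 fold change 0.21, adjusted p = 4.3e-04) and lower at 24 h (-0.16, adjusted p = 0.0036), where FOS and EGR1 were higher. MRTFB, an SRF coactivator, was higher at both times (0.38 and 0.43), and the ternary complex factor ELK4 was higher at 24 h (0.49, adjusted p = 2.0e-06). At 24 h, 3 of the 8 were higher and 1 lower, against 25.7% and 26.8% of all genes tested. Without untreated replicate 1 the counts of the 8 were 4 and 2.

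Among 18 tested genes of other bZIP proteins, 2 were higher and 8 lower at 8 h, against 25.2% and 24.5% of all genes tested. At 24 h 6 were higher and 9 lower, against 25.7% and 26.8%. The 8 h count of higher genes was 1 without untreated replicate 3 or TEPA 8 h replicate 2 or 3. The largest changes at 24 h were those of BATF3 (-1.44, adjusted p = 8.8e-07) and CREB5 (-1.40, adjusted p = 1.8e-08), which were lower, and BATF2 (1.21, adjusted p = 2.7e-05), which was higher. At 8 h MAFF (-0.58), DDIT3 (-0.57) and CEBPB (-0.49) were lower. JDP2, which encodes a repressor that pairs with JUN, was higher at 24 h (0.52, adjusted p = 2.2e-05) and not called at 8 h (0.10, adjusted p = 0.28).

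Of 12 AP-1 target genes tested, 8 h of TEPA left 6 lower and 2 higher, against 24.5% and 25.2% of all genes tested. After 24 h 6 were lower and none higher, against 26.8% and 25.7%. The median of the list was -0.18 at 8 h and -0.08 at 24 h. Without untreated replicate 1, 2 of 13 tested were higher at 24 h, and without TEPA 24 h replicate 3 the median there was 0.01. The 8 h median was -0.03 without TEPA 8 h replicate 1 and -0.09 without untreated replicate 3. CXCL8 and IL6, cytokine genes that NF-kB also controls, were lower at 8 h (-1.86 and -0.91, adjusted p = 9.7e-06 and 2.7e-04) and not called at 24 h (0.14 and 0.27, adjusted p = 0.58 and 0.15). CXCL8 was at 18.3, 8.19 and 9.99 CPM in untreated libraries, at 3.45, 3.35 and 3.13 CPM at 8 h, and at 11.7, 14.9 and 13.4 CPM at 24 h, so that untreated replicate 1 was again the highest. IL11, PLAU and LIF were lower at both times, by -0.32, -0.25 and -0.15 at 8 h and by -0.94, -0.76 and -0.46 at 24 h. PLAU, the urokinase gene, had 328, 347 and 343 CPM in untreated libraries, 288, 281 and 286 CPM at 8 h and 195, 211 and 194 CPM at 24 h. MMP1, the classical AP-1 collagenase gene, was scarce, at 0.506 CPM on average, and was not called at either time (0.50 and 0.01, adjusted p = 0.17 and 0.99). CCND1, the cyclin D1 gene, was higher at 8 h (0.33, adjusted p = 9.7e-06), as FOSL1 and JUN were.

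Of 7 tested EGR1 target genes, 2 were higher and 3 lower at 8 h, against 25.2% and 24.5% of all genes tested. At 24 h 1, NAB2, was higher and 3 lower, against 25.7% and 26.8%. The 24 h count of higher genes was 3 without untreated replicate 1, and 0 without untreated replicate 2 or 3, TEPA 8 h replicate 2 or 3, or TEPA 24 h replicate 1 or 3. ICAM1 was lower at 8 h (-0.97, adjusted p = 3.9e-05), and F3, the tissue factor gene, was higher at 8 h (0.44, adjusted p = 3.8e-04) and lower at 24 h (-0.50, adjusted p = 1.2e-04). TGFB1 and PDGFA were lower at 24 h (-0.32 and -0.29), where EGR1 was higher.

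Of 19 MYC target genes tested, 13 were higher and 2 lower after 8 h, against 25.2% and 24.5% of all genes tested. After 24 h 1 was higher and 11 lower, against 25.7% and 26.8%. The median log2 fold change of the list was 0.31 at 8 h and -0.22 at 24 h. The 24 h count of higher genes was 0 without untreated replicate 1 or without TEPA 24 h replicate 1 or 2. Between the times 17 fell and 1 rose, against 28.8% and 26.0% of all genes tested. The median of the list was -0.55, where that of all genes tested was -0.02. TERT, the telomerase gene, was higher at 8 h (0.92, adjusted p = 2.6e-05), with 4.13, 6.72 and 6.36 CPM in untreated libraries and 10.5 to 11.5 CPM at 8 h. MYBBP1A and CAD, genes of ribosome production and pyrimidine synthesis, were also higher there (0.75 and 0.69, adjusted p = 1.0e-07 and 4.7e-08). ODC1, the first enzyme gene of polyamine synthesis, was at 56.3, 88.4 and 76.3 CPM in untreated libraries, 121, 107 and 117 CPM at 8 h and 56.9, 55.3 and 52.9 CPM at 24 h. It was higher at 8 h (0.64, adjusted p = 1.2e-04) and lower at 24 h (-0.42, adjusted p = 0.0037). NOP16 and EIF4E were lower at 24 h (-0.40 and -0.39). The 2 genes that were lower at 8 h, against the list, were LDHA (-0.39, adjusted p = 8.3e-07) and EIF4E (-0.17, adjusted p = 0.017). NOP16 was higher at 8 h (0.30, adjusted p = 0.0018).

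Genes tested for partners and antagonists of MYC numbered 13. At 8 h 2 were higher and 7 lower, against 25.2% and 24.5% of all genes tested. At 24 h 2 were higher and 6 lower, against 25.7% and 26.8%. At 8 h 1 was higher without untreated replicate 1 or any 1 of the TEPA 8 h replicates, and at 24 h 4 were higher and 6 lower without untreated replicate 1, and 2 higher and 4 lower without untreated replicate 3. MAX was lower at both times (-0.29 and -0.25, adjusted p = 1.2e-04 and 2.8e-04). MXD4 and MXI1, which encode MAX partners that oppose MYC, were lower at 8 h (-0.79 and -0.61, adjusted p = 5.2e-06 and 0.0028) and not called at 24 h (0.20 and 0.12, adjusted p = 0.073 and 0.49). MXD4 had 47.5, 34.3 and 40.6 CPM in untreated libraries, 22.4, 23.7 and 24.4 CPM at 8 h and 44.2, 51.5 and 44.6 CPM at 24 h, so that the 8 h libraries were below all others. MLXIP, which encodes a partner of MLX, was higher at both times (0.29 and 0.21), and MXD3 was lower at 24 h (-0.31, adjusted p = 9.0e-04). MYCN was at 0 in every library.

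Among the 8 stress genes linked to ATF3, 3 were higher and 3 lower at 8 h, against 25.2% and 24.5% of all genes tested. At 24 h 2 were higher and 5 lower, against 25.7% and 26.8%. At 8 h only 1 was higher without untreated replicate 3 or TEPA 8 h replicate 3. At 24 h 3 were higher without untreated replicate 1, and 1 without untreated replicate 2 or 3, any TEPA 8 h replicate, or TEPA 24 h replicate 1 or 2. GDF15, a stress cytokine gene, was lower at both times (-1.86 and -2.38, adjusted p = 6.7e-08 and 3.4e-09), and DDIT3, which encodes CHOP, was lower at both (-0.57 and -1.20). ASNS, at 1.95 CPM on average, was higher at both (0.59 and 0.88, adjusted p = 0.016 and 6.5e-04). The other gene called higher at 24 h was CHAC1 (0.34, adjusted p = 0.046). PPP1R15A (-0.47, adjusted p = 1.1e-05) and TRIB3 (-0.34, adjusted p = 3.1e-04) were among the 5 that were lower there. ATF4 was lower at both times (-0.22 and -0.16).

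**Figure D5:**
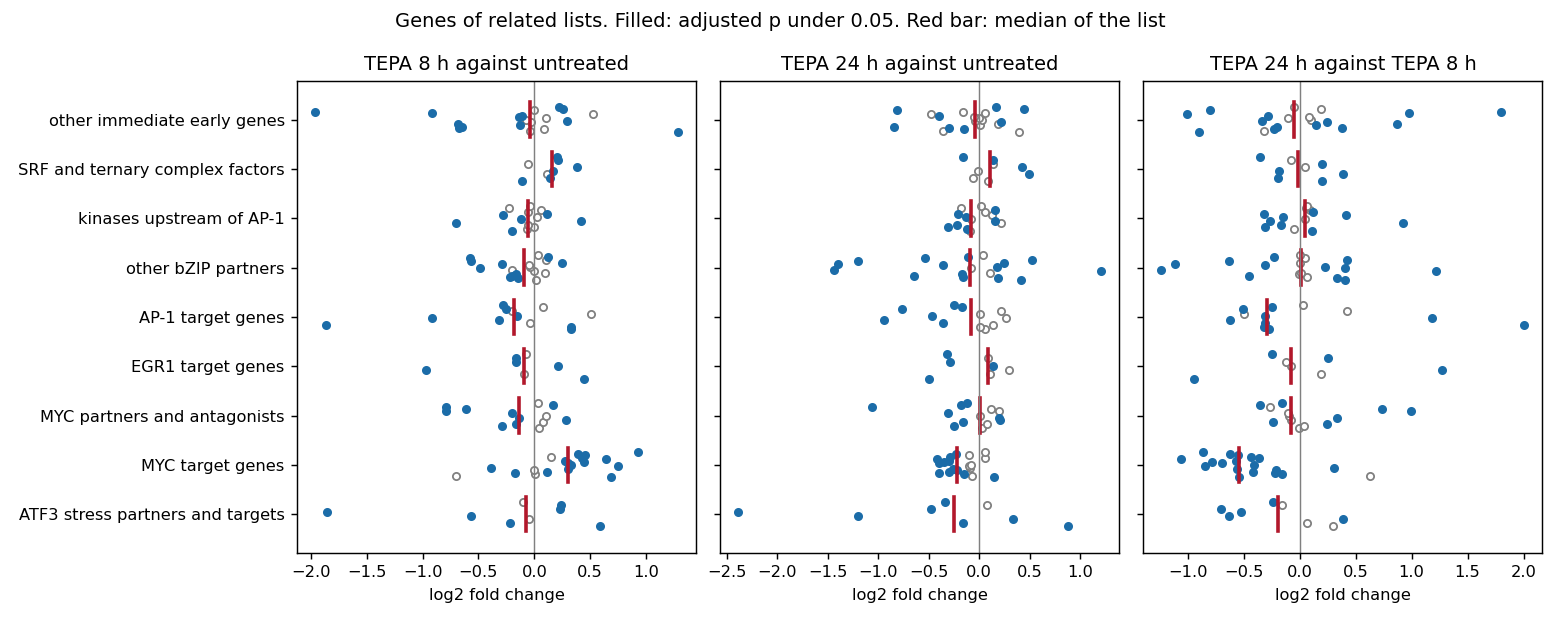
Log2 fold change (x axis) of each tested gene in 9 related lists (y axis) in the 3 comparisons, with filled points where the adjusted p was under 0.05 and a red bar at the median of each list. The MYC target genes have a median of 0.31 at 8 h and -0.22 at 24 h, and the other lists have medians between -0.25 and 0.15 at these times.

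The genes whose log2 CPM followed each of the 10 most closely over the 9 libraries were named by Pearson's r, among 10813 other genes with a mean of at least 5 CPM. The libraries fall into the 3 groups, so these values mostly reflect group means. They were MTMR3 and DIAPH2 for FOS (0.97 and 0.96), DRAM1 and PXK for FOSB (0.99 and 0.98), DRAM1 and PRDX2 for JUNB (0.99 and 0.99), and SEZ6L2 and PRDX2 for EGR1 (0.98 and 0.98). DRAM1 and PRDX2 were thus each named for a pair of the genes that were higher at 24 h. For FOSL1 they were WIZ and PUS1 (0.99 and 0.99), for FOSL2 PI4KB and MRPL28 (0.99 and 0.99), and for JUN TRAPPC2L and GFOD2 (0.98 and 0.98). L1CAM and IGFBP4 were nearest to JUND (0.996 and 0.996), AC138392.1 and ZNF776 to ATF3 (0.98 and 0.97), and CCN2, a matricellular protein gene, and CWC15 to MYC (0.98 and 0.97).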

How the data were processed

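RNA-Seq counts of 9 MDA-MB-231 libraries were used. The authors checked reads with FastQC, aligned them to hg38 with HISAT2 and assigned read pairs to the exons of named genes in the GRCh38 annotation (Ensembl release 103) with featureCounts, with strand used. They deposited raw counts with 1 column per library, and no column was left out. Versions of the aligner and counter are not given in the sources used here.

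Analysis was performed in R 4.3.3. The filterByExpr function of edgeR 4.0.16 (minimum count 10) retained 16556 of 59453 genes, and a single quasi-likelihood model with TMM factors and the groups as terms covered all 9 libraries. The Benjamini-Hochberg adjustment ran over every gene tested, with calls at an adjusted p under 0.05. A standard error is the absolute log2 fold change over the square root of F. CPM values use TMM-scaled library sizes. Merged exon lengths and gene positions came from GENCODE 44 on hg38, whose release differs from that of the authors. A motif search used both strands of the 250 bases before each RefSeq start. The procedure was tested on simulated counts with the same dispersion for every gene, so a spread as wide as that of FOS was not covered. Changes as small as those called for FOSL1, JUN and FOSL2 were not simulated either.

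Genes named are the 10 members, up to 3 genes of a list per comparison with the largest called change and a mean of at least 1 CPM, direct partners of a member, and the 2 genes most correlated with each member. LDHA, EGR2, EGR3, EGR4, MMP1, MYCN, ATF4, CHAC1, PPP1R15A and TRIB3 were named outside this rule after their values were seen. The members and lists were chosen with earlier results of these data known. Alternatives were DESeq2 1.42.0, upper-quartile or RLE factors, no filter, 10 counts in every library, only the 2 groups compared, a replicate block, mitochondrial genes left out of library sizes, and each library left out in turn. Permuting 3 against 3 libraries gives no p below 0.1, so single values were tested only in the fit across all genes.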

Additional observations from a re-analysis of the deposited data

Results flagged for a closer look

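For each of the 10 genes, though for MYC in few of the alternatives, the level differed between TEPA for 24 h and for 8 h (edgeR's quasi-likelihood test). With a single untreated group for both times, a change with TEPA cannot be told apart from a change with time in culture. The difference in log2 fold change was 2.34 for FOS, 1.76 for FOSB, 1.44 for EGR1, 1.04 for JUNB, 0.97 for JUND and 0.92 for ATF3, all higher at 24 h. It was -0.81 for FOSL1, -0.27 for JUN, -0.15 for FOSL2 and -0.12 for MYC, all lower at 24 h. Adjusted p-values ran from 8.3e-08 for FOSL1 to 0.044 for MYC, whose call was lost in 13 of 17 alternatives, and 54.8% of all genes tested were called in this comparison. No group had enough libraries for a test of single outlying libraries.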

How the results depend on the processing

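Of 510 values of single genes under the alternatives, 469 kept their direction and their side of the threshold, 14 lost a call, 14 gained one and 13 changed sign, the last in comparisons that were not called. JUN at 24 h against untreated was 0.0018 with RLE factors, 0.021 with upper-quartile factors, 0.0017 with DESeq2, 0.005 with 10 counts in every library, and -0.0525 to 0.0563 with 1 library left out. With 1 library left out, JUND at 24 h ran from -0.0846 to 0.128, FOSB at 8 h from -0.32 to 0.45 and JUNB at 8 h from -0.28 to 0.000407. With the fold limit of 0.5, members called higher at 8 h went from 2 to 0, lower at 24 h from 3 to 0, and lower from 8 h to 24 h from 4 to 1. Members lower at 8 h numbered 6 with no filter, where the fit had in effect unlimited degrees of freedom (a median of 180000 against 15.5), and 2 to 5 with 1 library left out. Of all genes, 4240 of 30057 were lower at 8 h with no filter and 4051 of 16556 in the main fit. Over the fits, MYC target genes higher at 8 h numbered 12 to 13, lower at 24 h 11 to 14 and lower from 8 h to 24 h 17. On the length of the longest transcript, the untreated level per kilobase became 32.3 for FOSL2, 43.7 for JUN, 1.92 for ATF3 and 28.1 for MYC. Over all genes, same-numbered libraries did not deviate together (correlations from -0.08 to 0.04 over 9 pairs), which does not show that they were unpaired. For FOS, replicates 1, 2 and 3 deviated by 0.83, -1.15 and 0.32 from the untreated mean in log2 CPM. Those at 8 h deviated by 0.89, -1.19 and 0.30 from their own mean. For JUND the order was reversed, with 0.22, -0.20 and -0.015 in untreated cells and -0.13, 0.09 and 0.04 at 8 h. With the replicate block, FOS was called at 8 h (-0.99, adjusted p = 0.047), MYC was not called from 8 h to 24 h (adjusted p = 0.059), and 7779 genes were called at 8 h against 8216. FOSB rests on the fewest reads, with as few as 27 counts.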

Other observations

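Genes tested for kinases that lead to AP-1 numbered 14. At 8 h 2 were higher and 4 lower, against 25.2% and 24.5% of all genes tested. At 24 h 2 were higher and 5 lower, against 25.7% and 26.8%. The medians of the list were -0.05 and -0.08 on the log2 scale. The count of higher genes at 24 h was 4 without untreated replicate 1 and 1 without untreated replicate 3, TEPA 8 h replicate 3, or TEPA 24 h replicate 1 or 2. At 8 h it was 1 with any 1 of 6 libraries left out, namely untreated replicate 1 or 3, any TEPA 8 h replicate, or TEPA 24 h replicate 1. MAP2K7, which encodes an upstream kinase of JNK, was higher at 8 h (0.42, adjusted p = 6.1e-07 by edgeR), and MAP2K6, an upstream kinase gene of p38, was lower (-0.70, adjusted p = 7.4e-04), as was MAPK3, which encodes ERK1 (-0.28, adjusted p = 0.0018). At 24 h, MAP2K3 (-0.31), MAP2K4 (-0.22) and MAPK8, which encodes JNK1 (-0.21), were lower.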
